A study of Rosa rugosa with 9 samples.

Results

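MYB123 of Rosa rugosa is the gene Rru06G055700, 1 of 47983 genes listed for the young roots of the cultivar 'Zizhi', and 1 of 25260 genes with enough reads for the fit across all genes. It was picked by its gene ID, and the choice was made with its levels in the 3 treatments known, so its own levels and differences are given as a description, with no test. The deposited annotation describes it as transcription factor MYB123 after a kiwifruit protein (Actinidia chinensis), as TT2-like in its pathway entry, and as MYB8-like after its best RefSeq match in Rosa chinensis. These sources therefore place it among the MYB regulators but do not give it 1 name. The annotation also lists a Myb-like DNA-binding domain, DNA binding and the nucleus.

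The roots came from potted plants grown in sand in a greenhouse and watered weekly for 37 weeks with 200 ml of Hoagland's nutrient solution. The control, CK, received 0.092 g of NH4H2PO4, the full phosphate supply. In HA1 the salt was cut to 0.0552 g, which is 60% of that supply, and 0.0368 g of humic acid was added, and in HA2 the amounts were 0.0368 g of the salt, which is 40%, and 0.0552 g of humic acid. Phosphate, ammonium and humic acid changed together, so their parts cannot be told apart. Each group held 3 libraries of polyadenylated RNA. Whether they came from separate plants is not stated in the labels, and the p-values below reflect only how far these libraries spread, which may be technical. The 3 groups carry the same genotype, and no transgene or mutant is named.

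R2R3-MYB proteins bind DNA through a pair of imperfect MYB repeats, and many of them switch on branches of phenylpropanoid metabolism. In Arabidopsis, TT2 (also called MYB123) works in a complex with the bHLH protein TT8 and the WD40 protein TTG1 to activate genes for proanthocyanidins, the condensed tannins that accumulate in the seed coat. These polymers are built from the flavonoid pathway, in which chalcone synthase and chalcone isomerase act early, dihydroflavonol 4-reductase and leucoanthocyanidin dioxygenase act late, and anthocyanidin reductase and leucoanthocyanidin reductase make the flavan-3-ol units. Kiwifruit MYB123 is known from the regulation of anthocyanin. What Rru06G055700 binds in rose roots was not measured here.

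Total counts per library ranged from 33847262 to 42988605, and 3 counts, the smallest number treated as detection, correspond to 0.0698 to 0.0886 CPM (counts per 1000000 counts) by library total. HA2 replicate 3 stood furthest from the other libraries of its group, with a chi-square per degree of freedom of 203 and 247 against them, compared with 42.9 between those 2. Of 15 genes that mark root identity, 14 had a count, and their summed level was 84.6 to 143 CPM in CK, in HA1 it was 128 to 131 CPM, and in HA2 it was 122.6 to 193 CPM. SHORT-ROOT and Casparian strip genes were present, while WOX5 was at or near 0. Of 81 genes of green tissue, 72 had a count, with summed levels of 120 to 234 CPM in CK, 88.0 to 122 CPM in HA1 and 58.1 to 154 CPM in HA2.

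MYB123 was highest in CK, intermediate in HA2 and lowest in HA1. Its raw counts were 2509, 2447 and 2203 in the CK libraries, 657, 379 and 391 in the HA1 libraries, and 1067, 1192 and 1064 in the HA2 libraries. Even the lowest library thus held 379 reads of the gene. Scaled for library size and composition by the TMM method, its level was 53.3, 69.4 and 51.8 CPM in CK. In HA1 it was 14.997, 11.4 and 11.2 CPM. In HA2 it was 30.9, 33.1 and 25.9 CPM. No library of any group overlapped with another group. Over all tested genes, HA1 lay below CK without overlap in 22.3%, HA2 lay below CK in 10.8% and HA2 lay above HA1 in 10.1%, and nothing is read from MYB123 being among them. The CK libraries averaged 58.1 ± 9.74 CPM, the HA2 libraries 30.0 ± 3.67 CPM and the HA1 libraries 12.5 ± 2.13 CPM (SD, n = 3 each). In bulk roots, fewer cells of a type that makes this RNA and less of the RNA per cell cannot be told apart.

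**Figure D1:**
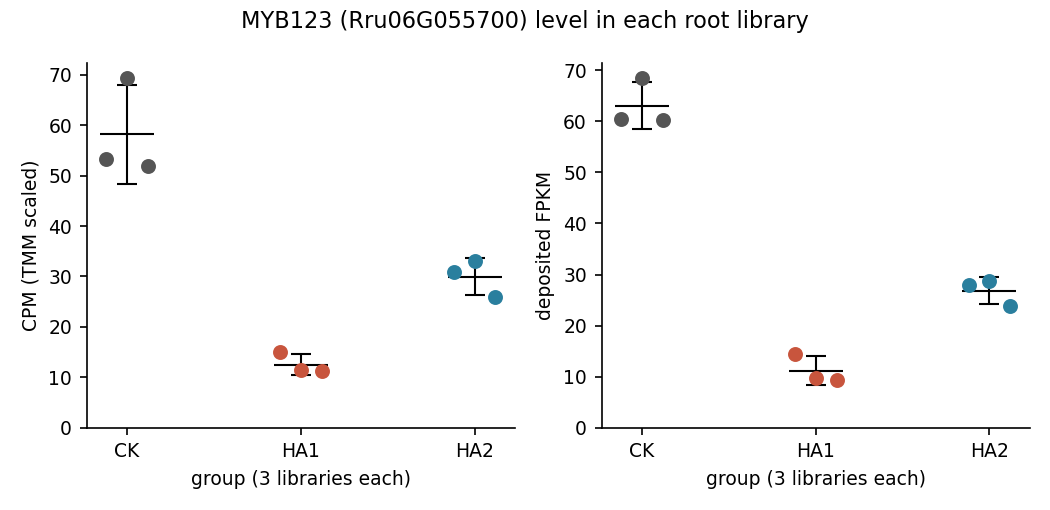
Level of MYB123 in each of the 9 root libraries, as CPM scaled by TMM and as the deposited FPKM, with the mean and SD of each group of 3. On the CPM scale the CK libraries lie between 51.8 and 69.4, the HA2 libraries between 25.9 and 33.1, and the HA1 libraries between 11.2 and 14.997.

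The deposited FPKM values, which are also scaled by transcript length, gave the same order. The CK libraries had 60.5, 68.4 and 60.3 FPKM, the HA2 libraries 27.9, 28.8 and 23.8 FPKM, and the HA1 libraries 14.5, 9.78 and 9.34 FPKM. The MYB123 level in HA1 was 21.6% of that in CK by TMM-scaled CPM and 17.8% by FPKM. In HA2 it was 51.5% of the CK level by TMM-scaled CPM and 42.5% by FPKM.

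The log2 fold change fitted by edgeR was -2.21 ± 0.20 (SE) for HA1 against CK, so that the fitted level in CK was 4.63 times that in HA1. It was -0.96 ± 0.19 for HA2 against CK, a 1.94-fold lower level in HA2, and 1.26 ± 0.20 for HA2 against HA1, a 2.39-fold higher level in HA2. These 3 comparisons share libraries, so the third follows from the others. The authors' deposited table gives log2 fold changes of -2.21, -0.94 and 1.28 for the same comparisons. Under TMM scaling the median of all tested genes moved by -0.02, -0.03 and 0.03. Scaling by total count moved that median to -0.29 in HA1 and -0.32 in HA2 against CK. Relative to the median gene, MYB123 then differed by -2.18 in HA1 and -0.93 in HA2, against -2.19 and -0.93 under TMM. Without HA2 replicate 3, the MYB123 log2 fold change was -0.86 for HA2 against CK and 1.35 for HA2 against HA1.

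An order of CK above HA2 above HA1 with no overlap of any 2 groups was found in 356 of 25260 genes, or 1.41%. The reverse order with no overlap was found in 626 genes, or 2.48%. MYB123 was chosen with this order known, so nothing is read from its place among the 356.

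The spread of MYB123 within groups was close to that of other genes of its abundance. Its coefficient of variation was 16.8% over the CK libraries, 17.0% over the HA1 libraries and 12.2% over the HA2 libraries. The median over 1836 genes whose mean level lay within a factor of 1.25 of its own was 15.6%, 14.8% and 17.8%. Among 136 genes of the MYB family, MYB123 ranked number 10 by mean FPKM in CK, number 23 in HA1 and number 14 in HA2. The first place was held by 3 different genes. In CK it was Rru01G036890, described as MYB3 and matched to MYB5, at 361 FPKM. In HA1 it was Rru06G057890, described as MYB73, at 136 FPKM. In HA2 it was Rru06G059270, described as MYB44, at 258 FPKM. The mean FPKM of MYB123 was above that of 93.2% of tested genes in CK, 70.9% in HA1 and 85.1% in HA2.

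Across all genes, 5355 of 25260 (21.2%) passed an adjusted p of 0.05 in HA1 against CK (edgeR, quasi-likelihood test, Benjamini-Hochberg), 10.9% higher and 10.3% lower. This count rested on single libraries: leaving out CK replicate 1 brought it to 0, and leaving out CK replicate 3 brought it to 666. With an HA1 library left out it was 1675 for replicate 1, 823 for replicate 2 and 2422 for replicate 3. All calls in HA1 below therefore end without CK replicate 1. In HA2 against CK only 1 gene (0.00396%) passed, in the higher direction, with 5233 genes at an unadjusted p below 0.05 and 2332 passing by DESeq2. Without HA2 replicate 3 the count in HA2 against CK was 1834, and without CK replicate 2 it was 1421. In HA2 against HA1, 0 genes (0%) passed by edgeR, 4069 had an unadjusted p below 0.05 and 1141 passed by DESeq2.

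The annotation names 4 other genes MYB123, and in CK and HA2 their mean levels were far below that of Rru06G055700. In HA1, Rru02G055220 averaged 12.5 CPM, as did Rru06G055700, and Rru02G009690 averaged 8.88 CPM. Of the 4, Rru06G032960 had 9 counts over all 9 libraries and was not tested. Rru06G062030, matched like Rru06G055700 to MYB8-like of Rosa chinensis, had 7.09, 2.41 and 4.70 CPM in CK, 1.48, 1.93 and 1.35 CPM in HA1, and 3.13, 1.47 and 1.27 CPM in HA2. Its CK libraries lay above its HA1 libraries without overlap, as in 22.3% of all tested genes, while CK and HA2 overlapped. It fell in HA1 by 1.58 on the log2 scale (SE 0.47, edgeR adjusted p = 0.043), and 10.3% of all tested genes passed in that direction. Its call held in 3 of 9 fits that each left out 1 library, and it was lost in 1 of 6 other settings, with an adjusted p of 0.051. In HA2 against CK its log2 fold change was -1.28 ± 0.46 (edgeR adjusted p = 0.181).

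The other tested genes of this name did not pass, and their RefSeq matches are to other MYB proteins. Rru02G009690, matched to an anthocyanin regulatory C1-like protein, had 9.89, 6.83 and 2.23 CPM in CK, 12.6, 8.64 and 5.45 CPM in HA1, and 11.7, 7.71 and 1.78 CPM in HA2. Its groups overlapped, and its log2 fold change in HA1 was 0.49 ± 0.68 (edgeR adjusted p = 0.627). Rru02G055220, matched to a Myb-related protein, had 8.62, 9.35 and 6.11 CPM in CK, 18.5, 13.1 and 5.94 CPM in HA1, and 9.66, 6.07 and 4.26 CPM in HA2. Its groups also overlapped, with a log2 fold change of 0.64 ± 0.43 in HA1 (edgeR adjusted p = 0.298). How reads shared between similar copies were counted is not given in the sources used here, so the split of reads among these genes is uncertain.

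**Figure D2:**
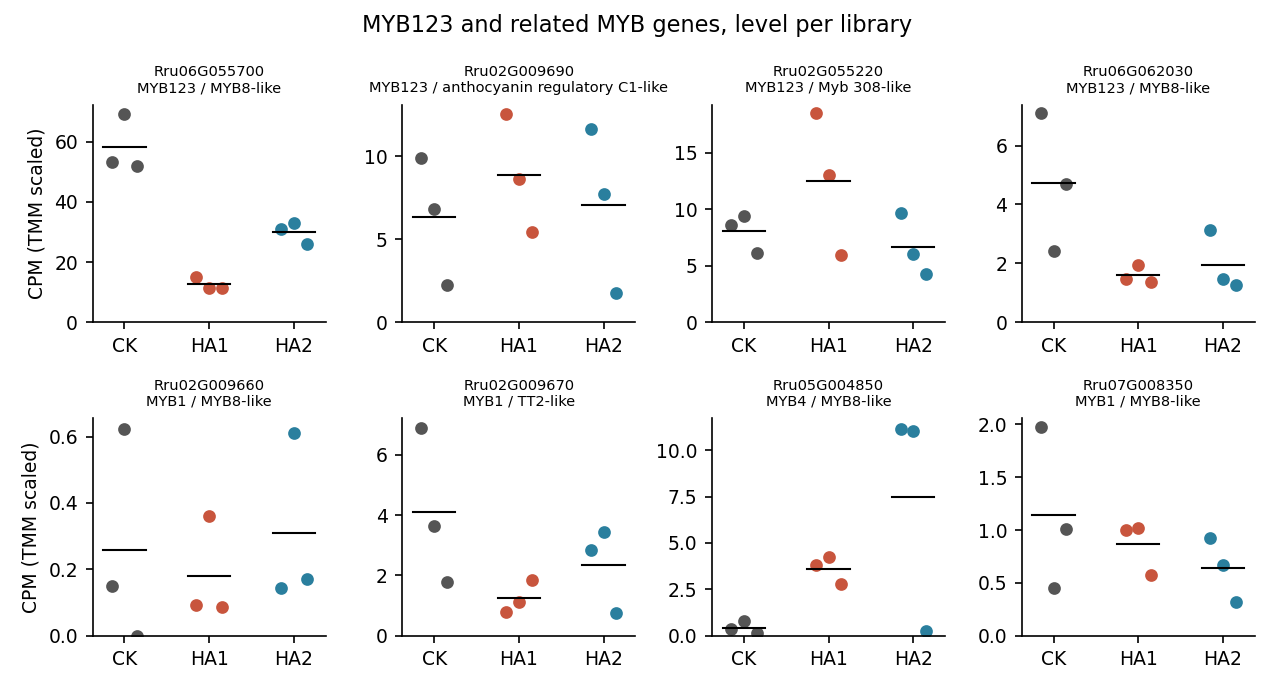
CPM (scaled by TMM) in each of the 9 libraries for MYB123 and for the other tested genes that the annotation calls MYB123 or matches to MYB8-like or TT2-like, 1 panel per gene, each with its own vertical axis and with bars at the group means. Only Rru06G055700 exceeds 50 CPM, and Rru05G004850 is the one gene of the set with HA1 values of 2.78 to 4.24 CPM above CK values of 0.141 to 0.765 CPM.

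A further 5 genes, singled out after their values were seen, are matched to MYB8-like or TT2-like proteins, and 4 of them were tested. Rru02G009670, matched to TT2-like, had 6.90, 3.63 and 1.79 CPM in CK, 0.799, 1.11 and 1.84 CPM in HA1, and 2.84, 3.44 and 0.755 CPM in HA2. Its log2 fold change in HA1 was -1.72 ± 0.65 (edgeR adjusted p = 0.085), and 1 HA1 library overlapped with CK. Rru05G004850 differed in the other direction. It had 0.340, 0.765 and 0.141 CPM in CK, 3.79, 4.24 and 2.78 CPM in HA1, and 11.2, 11.04 and 0.268 CPM in HA2. Its log2 fold change was 3.13 ± 1.08 in HA1 (edgeR adjusted p = 0.067) and 4.18 ± 1.12 in HA2 (adjusted p = 0.134), where replicate 3 was at the CK level. Of the MYB family without Rru06G055700, 82 of 135 genes were tested, of which 6 rose and 10 fell in HA1 and none passed in HA2, where 15 had an unadjusted p below 0.05 and 6 passed by DESeq2. The calls in HA1 are 19.5% of the family, close to the 21.2% over all genes. The 16 MYB family calls in HA1 came to 0 without CK replicate 1, to 1 without CK replicate 3, and to 2, 3 and 5 when HA1 replicate 1, 2 or 3 was left out.

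The partners of TT2 in Arabidopsis were looked at next. Of 3 tested genes listed as bHLH and WD40 partners, 1 rose, 1 fell and 1 did not pass in HA1 by edgeR. The calls are 66.7% of the 3, where 21.2% of all tested genes were called. By DESeq2, 1 rose and 2 fell, where 31.4% of all tested genes passed. The median log2 fold change of the 3 was -1.07. Only those that passed by edgeR are described here. Rru01G055460 is described as TTG1, the WD40 protein of the complex. It had 36.0, 46.9 and 34.1 CPM in CK, 108, 120 and 122 CPM in HA1, and 95.9, 82.2 and 61.3 CPM in HA2. These groups did not overlap either, and their order was the reverse of that of MYB123. That order without overlap was found in 2.48% of all tested genes. TTG1 rose in HA1 by 1.58 ± 0.21 on the log2 scale (edgeR adjusted p = 0.0091), and the call held in 8 of 9 fits that each left out 1 library, with the exception of the fit without CK replicate 1. In HA2 its log2 fold change was 1.03 ± 0.21 (edgeR adjusted p = 0.132). Rru07G018530 is described as GLABRA 3, a bHLH partner of MYB proteins, and is matched to EGL1-like in RefSeq. It had 8.45, 6.49 and 6.09 CPM in CK, 2.74, 4.06 and 3.22 CPM in HA1, and 6.61, 5.71 and 3.26 CPM in HA2. GLABRA 3 fell in HA1 by 1.07 (SE 0.30, edgeR adjusted p = 0.038). Its call held in 3 of 9 fits that each left out 1 library. Its HA1 libraries lay below its CK libraries, as in 22.3% of all tested genes. Its HA2 value was -0.43 ± 0.30 (edgeR adjusted p = 0.439). No description named TT8.

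Of 28 genes listed as flavonoid regulators, 18 were tested, of which 2 rose, 6 fell and 10 did not pass in HA1, with a median log2 fold change of -0.98 against -0.02 over all genes. The calls are 44.4% of the list and those lower 33.3%, where 21.2% and 10.3% were called over all genes. Of the 18, 14 are listed as MYB repressors, of which 1 rose, 4 fell and 9 did not pass. These calls are 35.7% of the 14 and those lower 28.6%. Among the regulators that fell was WRKY44, known in Arabidopsis as the seed-coat and trichome regulator TTG2, at -0.83 ± 0.21 (edgeR adjusted p = 0.028). A pair of genes is described as CPC, a small MYB protein that competes with R2R3-MYBs for bHLH partners in Arabidopsis. In RefSeq, Rru01G035760 is matched to ETC3 and Rru02G067210 to ETC1. Both changed in the same direction, in that Rru01G035760 fell by 1.81 and Rru02G067210 fell by 2.07. The Rru01G035760 call held in 4 of 9 fits that each left out 1 library. It was lost with the replicate block (edgeR adjusted p = 0.051). Rru02G067210 had 27.2, 23.4 and 46.9 CPM in CK, 4.25, 8.18 and 10.8 CPM in HA1, and 6.87, 11.2 and 20.1 CPM in HA2. Rru06G001960, described after an Antirrhinum Myb-related protein that represses phenolic acid metabolism, fell by 1.10, and Rru07G001830, described as MYB3, a repressor in Arabidopsis, fell by 1.20. Rru07G045830, described as Myb-related 330, rose by 1.35 ± 0.42 (edgeR adjusted p = 0.0496), a call that held in 3 of 6 other settings and in 2 of 9 fits that left out 1 library. The 7 genes described as the activators MYB12, MYB75 or MYB90 were too low to be tested. The 8 regulator calls in HA1 came to 0 without CK replicate 1, to 1 without CK replicate 3, HA1 replicate 1 or HA1 replicate 2, and to 3 without HA1 replicate 3. In HA2 none of the 18 passed by edgeR, with 6 at an unadjusted p below 0.05 and 4 passing by DESeq2.

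The flavonoid pathway list matched 79 genes, of which 63 were tested and 5 rose, 8 fell and 50 did not pass in HA1. The 13 calls are 20.6% of the list, close to the 21.2% called over all genes. The median log2 fold change was -0.75, and 46 of the 63 were below 0, against a median of -0.02 over all genes. The 13 calls came to 0 without CK replicate 1, to 1 without CK replicate 3 or HA1 replicate 2, to 2 and 3 without HA1 replicate 1 or 3, and to 7 without HA2 replicate 2. In HA2 against CK, 0 passed by edgeR, 11 had an unadjusted p below 0.05 and 9 passed by DESeq2, with a median of -0.10. Without HA2 replicate 3, 7 passed in HA2, and without CK replicate 2, 2 passed. In HA2 against HA1, 0 passed by edgeR, while 12 were higher at an unadjusted p below 0.05, 5 passed by DESeq2, and the median was 0.61.

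At the entry to phenylpropanoid metabolism, 6 genes were tested, 2 fell and 4 did not pass in HA1. The falls are 33.3% of the 6, where 10.3% of all tested genes fell. Phenylalanine ammonia-lyase 1 (Rru01G039610), which makes cinnamic acid, had 543, 480 and 578 CPM in CK, 267, 340 and 342 CPM in HA1, and 447, 596 and 562 CPM in HA2. It fell in HA1 by 0.75 (SE 0.21, edgeR adjusted p = 0.034), while its HA2 and CK libraries overlapped. Its call held in 3 of 9 fits that each left out 1 library. Cinnamate 4-hydroxylase (Rru05G065420), the next enzyme, had 666, 501 and 499 CPM in CK, 296, 307 and 303 CPM in HA1, and 334, 349 and 360 CPM in HA2. It fell in HA1 by 0.88 (SE 0.19, edgeR adjusted p = 0.018), a call that held in 5 of 9 such fits. Its log2 fold change in HA2 was -0.68 ± 0.19 (edgeR adjusted p = 0.135). Here, as for MYB123, HA2 lay between HA1 and CK without overlap, an order found in 1.41% of all tested genes.

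Among the early flavonoid enzymes, all 18 tested genes had a log2 fold change below 0 in HA1, with a median of -1.04. Of the 18, 3 passed, which is 16.7%, where 10.3% of all tested genes fell. The 3 that passed were Rru07G021680, Rru07G021930 and Rru07G021970. All are described as a flavonoid 3'-monooxygenase of the CYP75B137 type, with falls of 1.40, 1.52 and 1.03. Their calls held in 5, 5 and 4 of 6 other settings and in 4, 3 and 2 of 9 fits that left out 1 library. The first of them is matched to a 7-ethoxycoumarin O-deethylase-like protein in RefSeq, so its place in the pathway is uncertain. The most abundant chalcone synthase-type gene, Rru01G001950, described as polyketide synthase 1, had 689, 347 and 140 CPM in CK, 268, 192 and 104 CPM in HA1, and 635, 270 and 81.9 CPM in HA2. Its groups overlapped, and its log2 fold change in HA1 was -1.06 ± 0.75 (edgeR adjusted p = 0.327).

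In the main edgeR fit, the late and proanthocyanidin enzymes did not pass in any comparison. By DESeq2, 2 of the 4 late genes (50%) were lower in HA1, where 31.4% of all tested genes passed in either direction. Leucoanthocyanidin dioxygenase (Rru07G020520) had 44.6, 37.3 and 4.87 CPM in CK and 13.3, 3.94 and 3.36 CPM in HA1. In HA2 it had 22.7, 7.38 and 5.04 CPM. Its log2 fold change in HA1 was -2.07 ± 0.88 (edgeR adjusted p = 0.118). With a replicate block in the edgeR fit it was -1.95 (adjusted p = 0.037). Dihydroflavonol 4-reductase and both flavan-3-ol reductases did not pass with the block. Of 4 late genes the median log2 fold change in HA1 was -1.46, and of 4 proanthocyanidin genes it was -0.53. Dihydroflavonol 4-reductase (Rru06G052600) had 997, 569 and 251 CPM in CK, 352, 253 and 195 CPM in HA1, and 698, 368 and 107 CPM in HA2. Its log2 fold change in HA1 was -1.18 ± 0.66 (edgeR adjusted p = 0.215), with 1 CK library inside the HA1 range. Anthocyanidin reductase (Rru05G003990), which makes epicatechin units, had 501, 233 and 118 CPM in CK, 114.1, 107 and 80.7 CPM in HA1, and 248, 148 and 19.3 CPM in HA2. Its CK libraries lay above its HA1 libraries, as in 22.3% of all tested genes, the lowest CK library by a small margin. Its log2 fold change in HA1 was -1.50 ± 0.78 (edgeR adjusted p = 0.189). Leucoanthocyanidin reductase (Rru04G046630), which makes catechin units, had 599, 335 and 160 CPM in CK, 509, 364 and 378 CPM in HA1, and 925, 927 and 68.1 CPM in HA2, with a log2 fold change of 0.19 ± 0.78 in HA1 (edgeR adjusted p = 0.879).

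**Figure D3:**
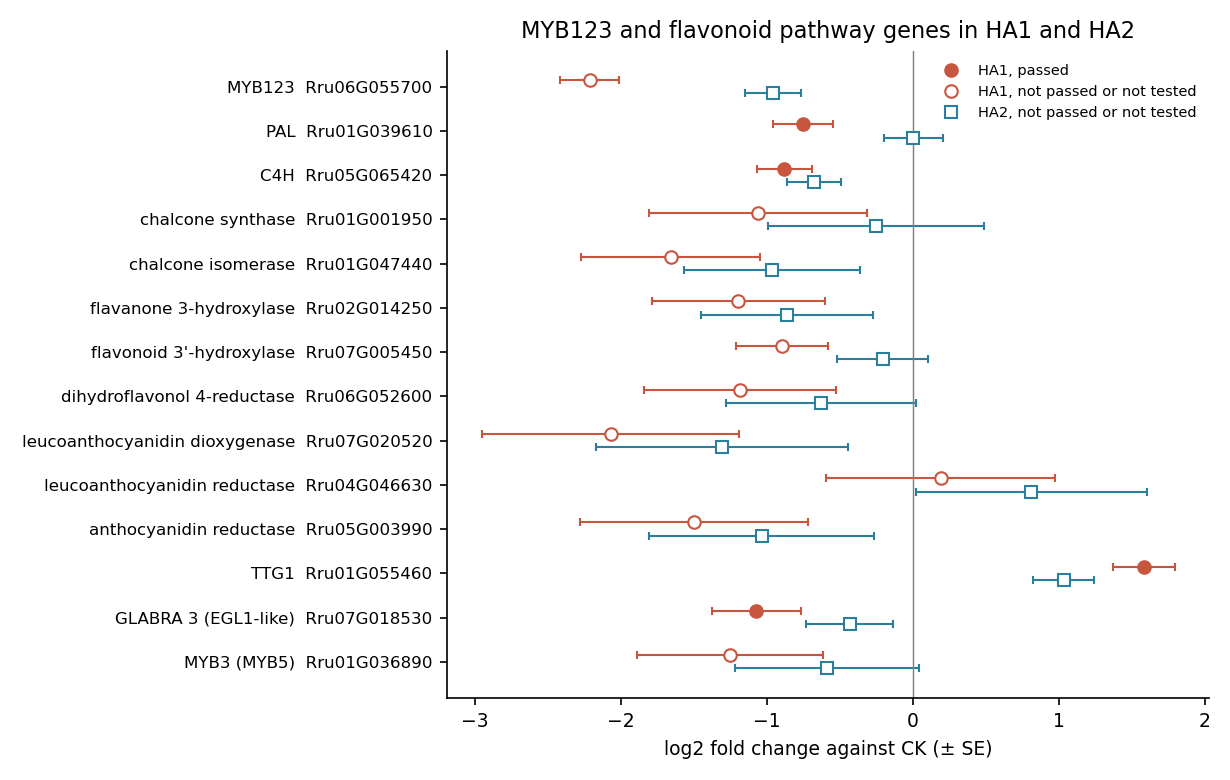
Log2 fold change against CK (± SE) in HA1 and HA2 for MYB123, selected flavonoid pathway enzymes and candidate partners, with filled symbols for genes that passed an edgeR adjusted p of 0.05. MYB123 was not tested; PAL, C4H, TTG1 and GLABRA 3 passed in HA1, none of those shown passed in HA2, and TTG1 is at 1.58 in HA1 where MYB123 is at -2.21.

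Genes that modify, move or oxidise flavonoids went both ways in HA1. Of 10 anthocyanin glycosylation genes 2 rose and 1 fell, of 9 transport genes 2 rose and 2 fell, and of 10 oxidation genes 1 rose. Over all genes 10.9% rose and 10.3% fell. An anthocyanidin 3-O-glucosyltransferase 5 gene (Rru02G017400) fell by 1.68 (SE 0.37, edgeR adjusted p = 0.019), while Rru02G017390 and Rru05G065750 of the same description rose by 1.91 and 1.43, the last of which is matched to a UDP-glycosyltransferase of another kind in RefSeq. DETOXIFICATION 41 (Rru02G061140), the TT12-type transporter that carries proanthocyanidin precursors into the vacuole in Arabidopsis, had 211, 96.9 and 80.3 CPM in CK, 62.5, 48.3 and 29.2 CPM in HA1, and 95.2, 65.7 and 64.8 CPM in HA2. It fell in HA1 by 1.47 (SE 0.41, edgeR adjusted p = 0.036). Its call held in 3 of 9 fits that each left out 1 library, and without CK replicate 1 its log2 fold change was -0.94. Of the DETOXIFICATION 40 genes, Rru02G066860 and Rru02G066960 rose by 2.18 and 2.16, from levels below 1 CPM in CK, and Rru05G002680 fell by 0.81. Laccase-15, known in Arabidopsis as TT10 for the oxidation of seed-coat flavonoids, rose by 1.84 ± 0.57 (Rru06G024960, edgeR adjusted p = 0.049). Its call held in 2 of 9 fits that each left out 1 library.

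The enzymes varied more than MYB123 within CK and HA2, and not in every case within HA1. For 8 pathway genes, the most abundant of each of 8 enzymes and chosen after the values were seen, the SD of log2 CPM within CK was 0.62 to 1.77, against 0.23 for MYB123. Within HA2 it was 0.30 to 2.17, against 0.18. Within HA1 it was 0.17 to 1.08, against 0.23, with flavonoid 3'-hydroxylase below MYB123 and both reductases of the proanthocyanidin branch close to it, at 0.26 and 0.27. The level in CK replicate 1 was 2.35 to 9.17 times that in CK replicate 3 for these 8 genes, and 1.03 times for MYB123. Relative to the mean of the 9 libraries, the median log2 level of the 8 genes was 1.54, 0.70 and -0.36 in the CK libraries, 0.02, -0.34 and -0.82 in the HA1 libraries, and 0.98, 0.08 and -1.61 in the HA2 libraries. In each group all 8 were higher in library 1 than in library 3. MYB123 was at 0.94, 1.32 and 0.90 in the CK libraries, at 0.16, 0.25 and -0.10 in the HA2 libraries, and at -0.89, -1.28 and -1.30 in the HA1 libraries. The pathway genes spread over CK and HA2, while MYB123 separated by group. MYB123 was chosen with that separation known, so nothing is read from the contrast.

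**Figure D4:**
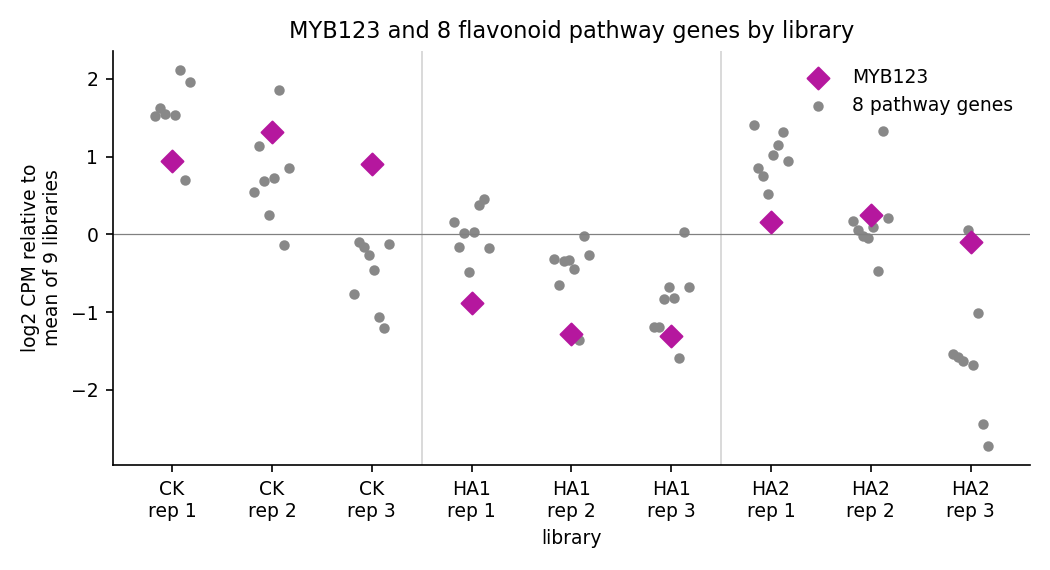
Log2 CPM relative to the mean of the 9 libraries for MYB123 (diamonds) and 8 flavonoid pathway genes (points), by library. MYB123 is at 0.90 or above in every CK library and at -0.89 or below in every HA1 library, while the median of the pathway genes runs from 1.54 to -0.36 within CK and from 0.98 to -1.61 within HA2.

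After group means were removed, the 28 pairs among the 8 pathway genes had a median Pearson r of 0.89 (range 0.47 to 1.00) over the 9 libraries. Each of the 8 with MYB123 had a median r of 0.51 (range 0.03 to 0.63). Without HA2 replicate 3 these medians were 0.93 and 0.29. The points share libraries and their scaling, and these values are a description of 9 libraries. Rru01G036890, the MYB3- or MYB5-type gene with the highest FPKM of the family in CK, had 823, 396 and 251 CPM in CK, 94.8, 196 and 327 CPM in HA1, and 452, 413 and 113.1 CPM in HA2. Its CK and HA1 libraries overlapped, and its log2 fold change in HA1 was -1.25 ± 0.64 (edgeR adjusted p = 0.180).

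The 10 genes whose profile was most like that of MYB123 were not flavonoid enzymes. The flavonoid pathway list held only 63 tested genes, so nothing is read from their absence. For the 8 pathway genes above, r with MYB123 over the 9 libraries had a median of 0.53 (range -0.03 to 0.69). Among 13767 tested genes with a mean of at least 1 CPM and a description that names a function, the 10 with the highest Pearson r over the 9 libraries had r of 0.94 to 0.96. They were described as a polyamine transporter (Rru07G031560), COP9 signalosome subunit 3 (Rru02G079440), the microtubule-bundling protein MAP65-1 (Rru05G034800), a sugar transporter ERD6-like 5 (Rru03G005220), the endonuclease MUS81 (Rru01G005340), serine carboxypeptidase-like 18 (Rru04G011420), the cell-cycle regulator E2FC (Rru06G053780), isopentenyl phosphate kinase (Rru04G049470), Nudix hydrolase 14 (Rru06G001310) and tubulin-folding cofactor A (Rru01G021300). They were chosen for this pattern, so no test is given.

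Most of them shared the order of the groups but not the size of the differences. Serine carboxypeptidase-like 18 came closest in size, with 12.5, 10.2 and 9.29 CPM in CK, 2.17, 3.13 and 2.12 CPM in HA1, and 6.06, 6.41 and 3.95 CPM in HA2. Its log2 fold change was -2.11 in HA1 and -0.96 in HA2, against -2.21 and -0.96 for MYB123. The other 9 differed by -1.60 to -0.42 in HA1. MAP65-1 had 88.4, 82.2 and 84.5 CPM in CK, 48.9, 39.1 and 44.03 CPM in HA1, and 55.1, 59.5 and 56.1 CPM in HA2. Within groups the likeness was weaker: with group means removed, r was 0.15 for serine carboxypeptidase-like 18, 0.77 for COP9 subunit 3 and -0.16 for isopentenyl phosphate kinase, the lowest of the 10. Membership of the 10 depended on single libraries, with 1 of them among the top 10 without CK replicate 2 and 7 without HA2 replicate 2.

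**Figure D5:**
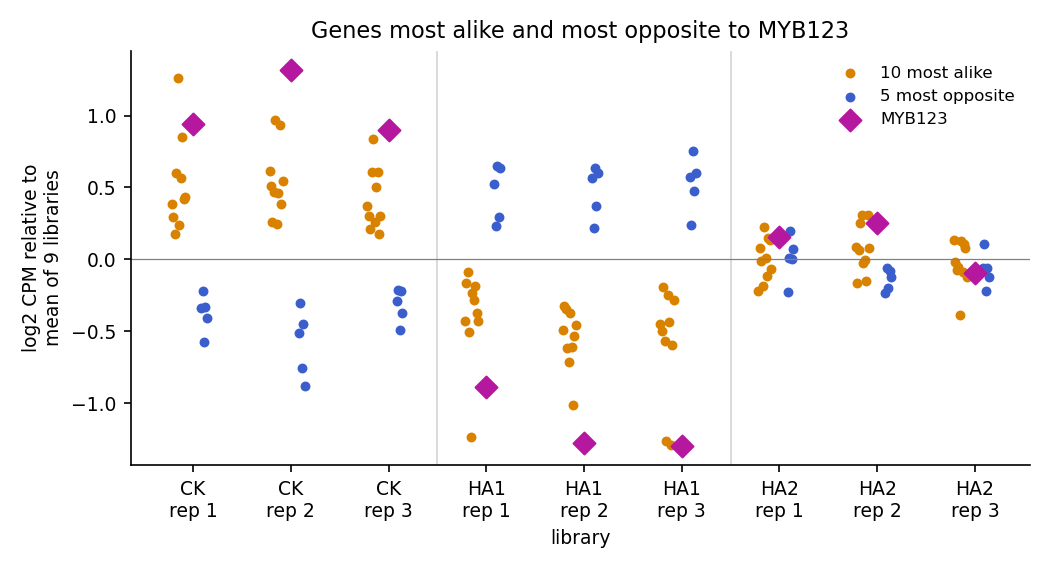
Log2 CPM relative to the mean of the 9 libraries for MYB123 (diamonds), the 10 genes most alike and the 5 most opposite to it by Pearson r, by library. The alike genes follow MYB123 in order from CK to HA2 to HA1, most of them over a narrower range, and the opposite genes run the other way.

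The 5 genes of most opposite profile had r of -0.99 to -0.96. They were described as the beta-glucuronosyltransferase GlcAT14C (Rru03G015930), the polyadenylate-binding protein RBP47B (Rru02G033000), SKIP34 (Rru02G025480), the RNA polymerase II phosphatase-like CPL3 (Rru04G040440) and the ubiquitin ligase SPL2 (Rru02G055490). GlcAT14C had 14.9, 13.7 and 16.1 CPM in CK, 23.1, 24.3 and 26.2 CPM in HA1, and 18.8, 17.7 and 18.0 CPM in HA2. Its differences were smaller than those of MYB123, at 0.72 on the log2 scale in HA1.

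Genes with neighbouring IDs showed no common direction. Of the 10 IDs before and the 10 after MYB123, 16 were tested, and 4 rose and 2 fell in HA1, with a median log2 fold change of -0.01. These are 37.5% of the 16, where 21.2% of all tested genes were called. The 6 that passed were Rru06G055600, described as the ubiquitin ligase AIP2, at 1.11, Rru06G055730, a chloroplast ABC1-type kinase, at -1.03, Rru06G055740, an elongation factor 1-alpha, at 0.62, Rru06G055750, a putative C2H2 factor, at 1.17, Rru06G055760, a REI1-type ribosome biogenesis factor, at 1.13, and Rru06G055800, a peroxidase, at -1.59. AIP2 had 20.3, 20.7 and 21.3 CPM in CK, 46.6, 40.4 and 47.4 CPM in HA1, and 34.2, 33.3 and 30.5 CPM in HA2 (edgeR adjusted p = 0.0091 for HA1). Reads of the elongation factor may be split with near-identical copies.

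In HA1, where MYB123 was lowest, the summed green-tissue level was 88.0 to 122 CPM, against 120 to 234 CPM in CK. In HA2, where MYB123 was intermediate, it was 58.1 to 154 CPM. Of 40 tested green-tissue genes 3 fell in HA1, which is 7.5%, against 10.3% of all genes. The median log2 fold change of the 40 was -0.61 in HA1 and -0.51 in HA2, with 26 and 29 of them below 0. Over all tested genes the medians were -0.02 and -0.03. Of 12 tested root identity genes, 1 rose in HA1, which is 8.3%, against 10.9% of all genes, and 11 did not pass. The median log2 fold change of the 12 was 0.11 in HA1 and 0.52 in HA2, with 5 and 0 of them below 0. The root identity list also named a high-affinity nitrate transporter, and its part in these medians was not tested. The part of tissue makeup in the MYB123 difference was not tested.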

How the data were processed

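Polyadenylated RNA of 9 root libraries was sequenced as paired reads, per the labels' protocols. The authors deposited whole-number counts and FPKM per gene and library, with annotation and their DESeq2 log2 fold changes, per the file headers. Aligner, counter, genome build and strandedness: not given in the sources used here. Reads of a gene and an antisense partner may therefore not be told apart. No coordinates or sequences were used, and 0 gene IDs matched the RefSeq gene table.

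Counts were fitted with edgeR 4.0.16 in R 4.3.3 (filterByExpr, TMM, quasi-likelihood test, 1 mean per group, all 9 libraries). Tests were two-sided, p-values were adjusted by Benjamini-Hochberg across the 25260 genes, and 0.05 was the threshold. The SE is the size of the log2 fold change divided by the root of the F statistic. Log2 CPM used a prior count of 2. Scripts were tested on simulated data. The deposited FPKM values entered no test.

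MYB123, the gene lists and their tests were chosen with earlier results of these data known. List members were matched by words in the deposited descriptions, and the patterns for chalcone synthase, chalcone isomerase and flavonoid 3'-hydroxylase were amended after the descriptions were read. Named genes were MYB123, other genes described so, list members past the threshold and the most abundant of each role, the 10 most alike and 5 most opposite genes, and called ID neighbours. Others are marked as chosen after their values were seen. Libraries were left unpaired: same-numbered libraries of different groups, 9 pairs in all, correlated above 0.1 in 3 cases once group means were removed (range -0.30 to 0.32). No libraries within a group were duplicates, with a chi-square per degree of freedom of 42.9 to 247. Alternatives were RLE scaling, DESeq2 1.42.0, other filters, only the groups compared, a replicate block, a minimum fold and leaving out each library.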

Additional observations from a re-analysis of the deposited data

How the results depend on the processing

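The MYB123 log2 fold change kept its direction in every setting run. Leaving out 1 library at a time it ranged from -2.36 to -2.11 in HA1 against CK, from -1.04 to -0.85 in HA2 against CK and from 1.18 to 1.40 in HA2 against HA1. With the replicate block it was -2.21, -0.96 and 1.252. The level in HA1 as a percentage of CK was 17.8% by FPKM against 21.6% by TMM, and in HA2 it was 42.0% by total count and 42.5% by FPKM against 51.5%. Counts of called genes were less stable, and the cause was not tested. Leaving out 1 library, the count in HA1 against CK ranged from 0 to 7003 over all genes, 0 to 17 in the flavonoid list, 0 to 10 in the regulators and 0 to 24 in the MYB family. In HA2 against CK it ranged from 0 to 1834 over all genes and 0 to 7 in the flavonoid list, and in HA2 against HA1 it was 0 to 0 in both. With DESeq2 the counts were 2332 over all genes and 9 in the flavonoid list for HA2 against CK, 1141 and 5 for HA2 against HA1, and 7920 over all genes, 20 in the flavonoid list and 26 in the MYB family for HA1 against CK, which are 31.4%, 31.7% and 31.7% of those tested. The MYB family count was 25 when only CK and HA1 were fitted. The single gene called in HA2 against CK was lost (count 0) with the filter at 1 CPM, with only the groups compared and with the replicate block. The block gave 5206 genes in HA1 against CK and 17 flavonoid list members, chalcone isomerase and leucoanthocyanidin dioxygenase among them. Same-numbered libraries were not paired by the labels, so this is a hint from the data only. Of the 10 genes most like MYB123, 4 stayed by Spearman correlation, 0 with group means removed, and 1 to 7 leaving out 1 library. Of 42 single genes called in HA1, none reversed in any setting, 34 kept their call in each of the 6 settings that held all 9 libraries or only CK and HA1, and 26 also kept it without each HA2 library. A gene with few counts, such as Rru06G032960 with 9, is limited by depth.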
